A study of Mus musculus with 20 samples.

Results

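Prg4 encodes proteoglycan 4, also called lubricin, and it is described here as a single gene in the livers of obese mice, 1 of 34933 named entries in the deposited tables and 1 of 12789 genes that passed the filter on low counts. It was taken up because its values were lower in each single-compound group than in the vehicle group in an earlier look at the same libraries. Its levels and fold changes are therefore given as a description, and no p-value is given for them. The libraries came from livers of wild-type mice (genotype WT) with diet-induced obesity (DIO), which all 4 groups shared. The groups, of 5 mice each, received rosuvastatin together with geranylgeraniol (Rosuvastatin+GGOH, here the combination), rosuvastatin alone, GGOH alone, or vehicle. The labels used here give no dose, duration, diet, strain, sex or age, and no lean group was analysed.

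Lubricin is a secreted, mucin-like glycoprotein. Its central part is a long series of short repeats that carry O-linked sugars, and it lies between somatomedin B-like domains at the start and a hemopexin-like domain at the end. It is best known as the boundary lubricant of joints, made by synovial cells and by chondrocytes of the cartilage surface, and hepatocytes are also known to make it. One of its older names, megakaryocyte stimulating factor, comes from another line of work on the same gene. Rosuvastatin is a statin, a class of drugs that block the mevalonate pathway of sterol and isoprenoid synthesis. GGOH can be converted to geranylgeranyl diphosphate, a product of that pathway that is attached to small signalling proteins, and so it is used to supply this product when a statin blocks its synthesis.

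Prg4 (ENSMUSG00000006014.16) lies on the minus strand of chromosome 1, at chr1:150449412-150466165 of GRCm38, in the GENCODE M21 annotation. The annotation gives 8 transcripts. They differ mainly in exon 6 of the longest one, Prg4-208, a coding exon of 2286 bases at chr1:150454052-150456337. Prg4-208 (4263 bases) and Prg4-206 (3821 bases) keep the whole exon and have a coding sequence of 3663 bases. Prg4-203 and Prg4-202 (3636 and 3495 bases) keep 1782 bases of it. Prg4-201 and Prg4-207 (1869 and 1480 bases) keep 156 bases and have a coding sequence of 1269 bases. Prg4-205 and Prg4-204 (577 and 337 bases) are short models that end within or before this exon.

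**Figure D1:**
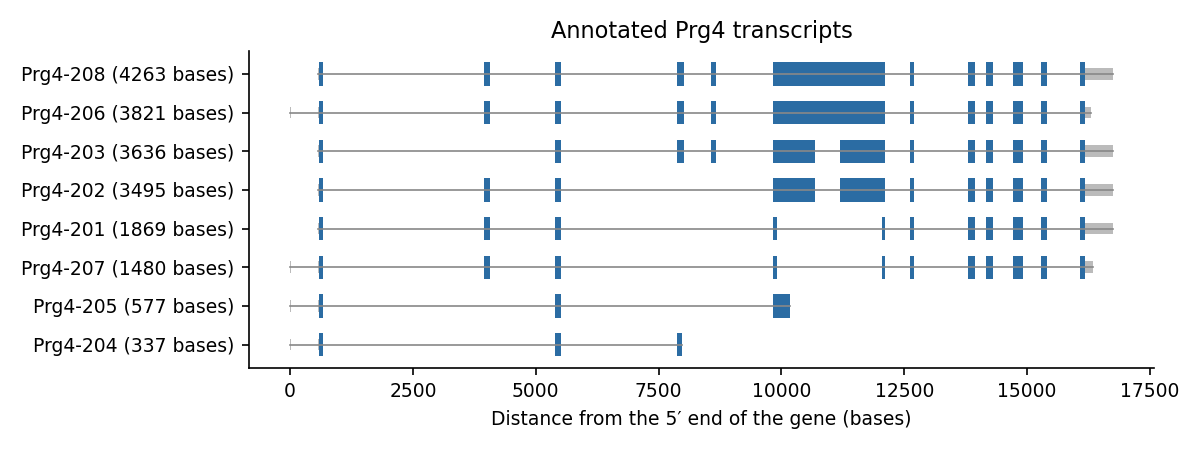
The 8 annotated Prg4 transcripts drawn 5′ to 3′, with the distance from the 5′ end of the gene in bases on the horizontal axis; tall blue boxes are coding exons, low grey boxes untranslated parts and lines introns. The exon of 2286 bases is whole in Prg4-208 and Prg4-206 and is reduced to its 2 ends in Prg4-201 and Prg4-207.

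Most of the difference in length between Prg4-201 and Prg4-208 lies within this exon, and Prg4-201 also lacks 2 smaller exons upstream of it. The sequences at the borders of the stretch that Prg4-201 leaves out of the exon are shown, because they tell the short and long forms apart, and are taken from the GENCODE M21 transcripts and read 5′ to 3′ on the minus strand of GRCm38. Capitals mark the 24 bases that follow each border. The first line joins chr1:150456251-150456274 to chr1:150454097-150454120, the second is chr1:150456227-150456274 and the third is chr1:150454097-150454144.
Prg4-201 across its splice: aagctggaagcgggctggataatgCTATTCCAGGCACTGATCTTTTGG
Prg4-208 where the short transcript leaves: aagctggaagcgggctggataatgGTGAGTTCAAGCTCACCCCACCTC
Prg4-208 where the short transcript rejoins: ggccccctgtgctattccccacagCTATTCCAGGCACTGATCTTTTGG

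The stretch that Prg4-201 lacks is 2130 bases long (chr1:150454121-150456250) and codes for the repeats. A and C together make up 73.6% of it on the transcript strand. Its most frequent 12-base word, AAGGAGCCTGAA, occurs 49 times in Prg4-208, all within the stretch, and 0 times in Prg4-201. The word was searched on the transcript strand only, in all annotated transcripts, and was found in 25 of 55341 genes (0.0452%). No gene other than Prg4 held more than 1 copy. A window of 240 bases with 10 copies, chr1:150455442-150455681 on the minus strand, is shown because it carries the repeat unit that the long transcripts keep, with the word in capitals.
Prg4-208 repeat window: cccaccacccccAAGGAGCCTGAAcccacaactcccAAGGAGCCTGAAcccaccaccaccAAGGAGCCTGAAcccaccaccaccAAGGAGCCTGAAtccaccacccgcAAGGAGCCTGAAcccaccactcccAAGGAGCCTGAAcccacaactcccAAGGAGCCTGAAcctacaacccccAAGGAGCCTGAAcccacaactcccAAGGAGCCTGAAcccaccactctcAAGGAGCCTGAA

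The libraries held between 8548120 and 18373913 estimated counts. The share of mitochondrially encoded genes was 27.9% for combination mouse 2 and 29.2% for combination mouse 3, and no higher than 17.1% for any of the remaining 18. These 2 libraries and vehicle mouse 1 had stood apart in an earlier look, so the Prg4 values are also given without all 3. Summed over 8 hepatocyte markers, such as Alb, Apoa1 and Ttr, the level ran from 50415 to 106673 CPM over the 20 libraries. No gene passed an adjusted p of 0.05 in edgeR's quasi-likelihood test in any of the 6 contrasts, and each had some genes at an unadjusted p under 0.05, between 216 (combination against rosuvastatin) and 1788 (combination against GGOH). DESeq2 called 5 genes in the combination against vehicle, 1 in the combination against rosuvastatin, 2 in rosuvastatin against vehicle and 0 in the other 3 contrasts.

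Prg4 was detected in every library, with between 191 and 1346 estimated counts. Its mean level was 12.5 TPM, a unit scaled for transcript length, which ranked it 3519th of 20883 genes with a mean TPM above 0. Counting error was small beside the differences between mice. In the library with the fewest Prg4 counts, rosuvastatin mouse 1, the level before TMM scaling was 13.0 CPM with a 95% Wilson interval of 11.2 to 14.9, and in vehicle mouse 1 it was 80.2 CPM with an interval of 76.1 to 84.6.

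Prg4 was lower on average in all 3 treated groups than in the vehicle group, and the vehicle mean was carried mainly by 2 of its 5 mice. After TMM scaling, combination mice 1 to 5 had 17.0, 32.8, 24.1, 16.8 and 15.3 CPM. Rosuvastatin mice 1 to 5 had 13.4, 26.3, 14.3, 12.6 and 17.5 CPM, and GGOH mice 1 to 5 had 23.4, 20.8, 17.8, 19.0 and 16.9 CPM. Vehicle mice 1 to 5 had 64.2, 109, 32.7, 26.4 and 21.0 CPM. The 15 treated mice and vehicle mice 3, 4 and 5 thus lay in one range, and vehicle mice 1 and 2 lay above it. Each treated group overlapped the vehicle group. In the combination group 2 mice lay above the lowest vehicle mouse and 3 vehicle mice lay below the highest combination mouse, and in the rosuvastatin and GGOH groups 1 mouse lay above the lowest vehicle mouse and 1 vehicle mouse below the highest treated mouse.

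Group means were 21.2 ± 7.32 CPM in the combination group, 16.8 ± 5.64 CPM in the rosuvastatin group, 19.6 ± 2.61 CPM in the GGOH group and 50.6 ± 36.5 CPM in the vehicle group (SD, n = 5 each). In descending order, vehicle was followed by the combination, GGOH and rosuvastatin, and the neighbouring means in this order differed by less than 1 SD of the wider group in every step. Relative to the vehicle mean, the combination mean was 0.419, the rosuvastatin mean 0.333 and the GGOH mean 0.387. On the log2 CPM scale the SD was 0.46 in the combination group, 0.43 in the rosuvastatin group, 0.19 in the GGOH group and 0.98 in the vehicle group. Differences between group means made up 49.3% of the variance of log2 CPM over the 20 mice, and the vehicle group held 69.0% of what remained within groups. Prg4's biological coefficient of variation was 0.379, higher than that of 81.1% of the genes tested, whose common value was 0.300.

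On the TPM scale the same 2 vehicle mice were highest. The levels were 5.53, 9.84, 8.08, 8.80 and 11.1 TPM in combination mice 1 to 5, and 6.73, 10.1, 7.32, 6.36 and 11.3 TPM in rosuvastatin mice 1 to 5. GGOH mice 1 to 5 had 13.5, 11.9, 9.80, 11.7 and 7.04 TPM, and vehicle mice 1 to 5 had 28.5, 48.2, 12.8, 11.96 and 9.76 TPM. The GGOH group overlapped the vehicle group more on this scale, with 4 GGOH mice above the lowest vehicle mouse and 3 vehicle mice below the highest GGOH mouse. The means were 8.68 ± 2.10 TPM in the combination group, 8.36 ± 2.20 TPM in the rosuvastatin group, 10.8 ± 2.47 TPM in the GGOH group and 22.2 ± 16.3 TPM in the vehicle group (SD, n = 5 each). The GGOH mean thus lay above the combination mean in TPM and below it in CPM. Within each library, Prg4's TPM ranked among the top 8.47% of genes with a TPM above 0 in vehicle mouse 2 and the top 35.0% in rosuvastatin mouse 3.

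**Figure D2:**
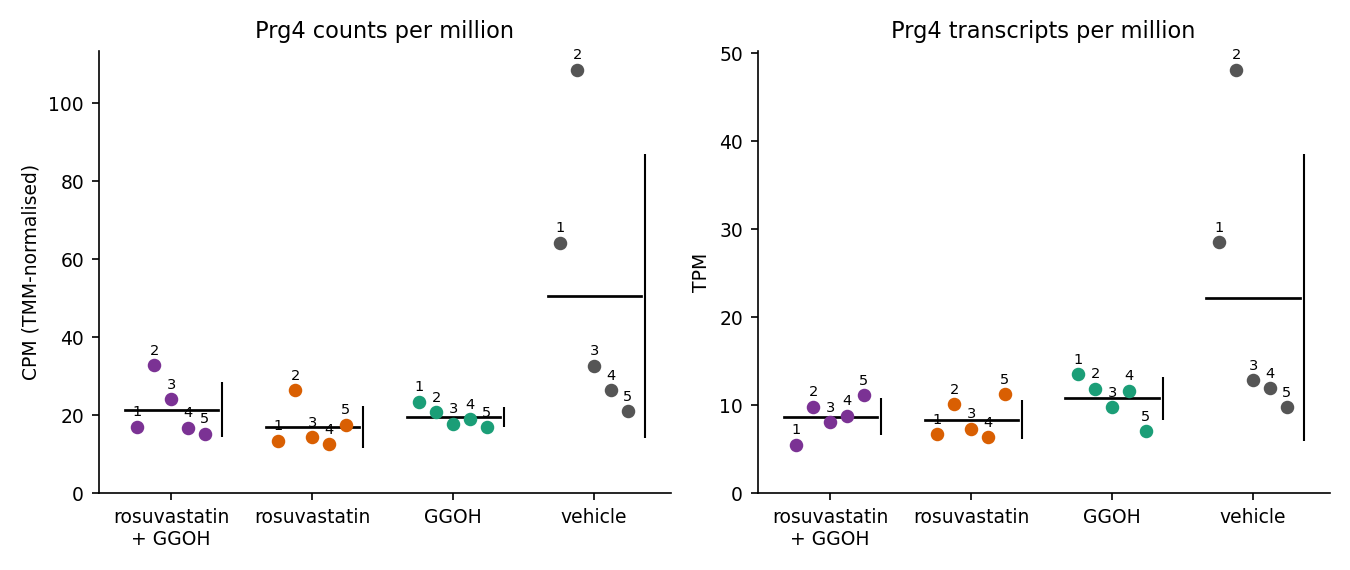
Prg4 in each mouse as TMM-normalised CPM (left) and as TPM (right), by group; points are mice with their replicate number, horizontal lines are group means and vertical lines span 1 SD on each side (n = 5). Vehicle mice 1 and 2 lie above all others on both scales, and the other 3 vehicle mice lie in or near the range of the treated mice.

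The fitted log2 fold changes restate these levels on the log2 scale, with SE from the fit over all 20 libraries. The fit holds 1 spread for all groups. The SD of log2 CPM, however, was 0.98 in the vehicle group and 0.46 or less in the treated groups. The SE of the contrasts with vehicle and of the interaction therefore does not fully reflect the wider vehicle spread. Against vehicle, Prg4 stood at -1.26 ± 0.35 in the combination group, -1.59 ± 0.35 in the rosuvastatin group and -1.37 ± 0.35 in the GGOH group. The median over all genes tested lay within 0.02 of 0 in each of the 6 contrasts. These 3 comparisons share the vehicle mice. The combination stood at 0.33 ± 0.35 against rosuvastatin and at 0.11 ± 0.35 against GGOH, each no larger than its SE. The interaction, which is the combination effect minus the sum of the 2 single-compound effects on the log2 scale, was 1.70 ± 0.49.

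Of the 20 libraries, vehicle mouse 2 moved the 3 contrasts with vehicle and the interaction most when left out. Without it the log2 fold changes against vehicle were -0.77 for the combination, -1.09 for rosuvastatin and -0.90 for GGOH, and the interaction was 1.21. When vehicle mouse 1 was left out together with combination mice 2 and 3, they were -1.51 for the combination, -1.47 for rosuvastatin and -1.25 for GGOH, and the interaction was 1.21. The contrasts between treated groups moved most without other mice. Without combination mouse 2 the combination stood at 0.12 against rosuvastatin and -0.10 against GGOH, and without rosuvastatin mouse 2 it stood at 0.55 against rosuvastatin. With vehicle mouse 1 and both high-mitochondrial combination mice left out, it stood at -0.04 against rosuvastatin and -0.26 against GGOH. The sign of the combination against GGOH also differed between scales, since it was -0.29 on log2(TPM + 1) and -0.40 when counts were corrected for transcript length.

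**Figure D3:**
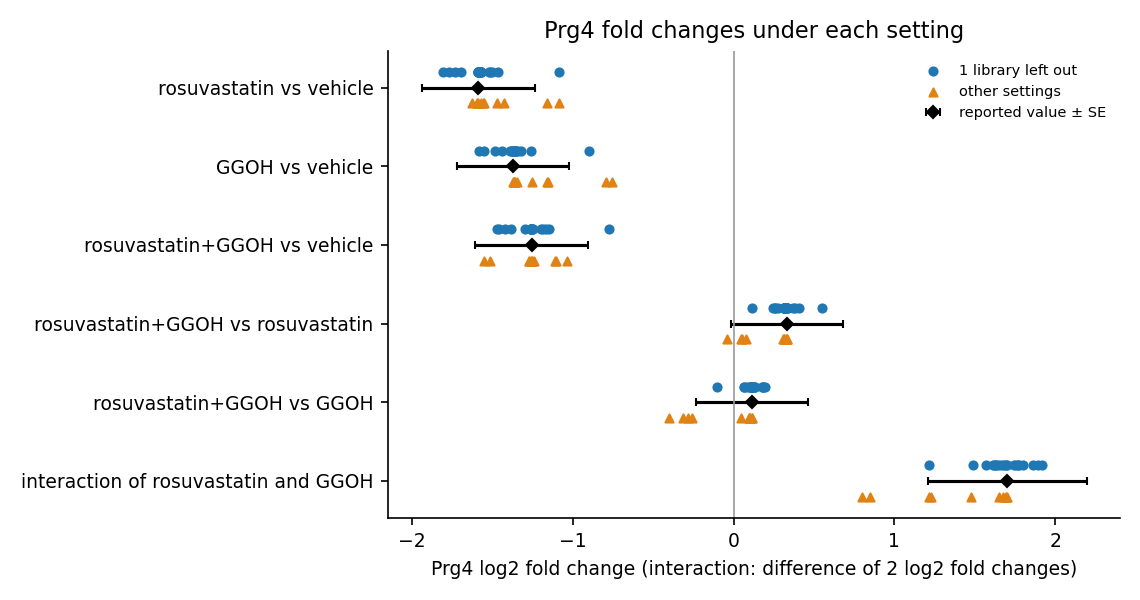
Prg4 log2 fold changes (horizontal axis) for 5 contrasts and the interaction (rows). Black diamonds are the reported values with SE, blue points leave out 1 library each and orange triangles are the other settings; every value of the 3 contrasts with vehicle lies below 0, and those of the combination against GGOH lie on both sides of 0.

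The deposited counts and TPM together hold a second readout of Prg4. It is a quotient of the same values that gave the levels above, and not a separate measurement. Estimated counts divided by TPM are proportional to the mean length of the transcripts that the reads were assigned to, less a term for fragment length, and the level of the gene cancels. The scale was set in each library from 548 genes with a single annotated transcript, of which between 96.5% and 97.1% lay within 2% of the fitted line. The result is a mean length weighted by transcript abundance, which depends on how reads were divided among the annotated transcripts. It varied more for Prg4 than for most genes, with an SD of log2 length of 0.39 over the 20 mice, against a median of 0.08 over 7663 reference genes (percentile 97.2).

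The mean transcript length was 2717, 3195, 3380, 1979 and 1740 bases in combination mice 1 to 5, and 1969, 2398, 2672, 2016 and 2046 bases in rosuvastatin mice 1 to 5. GGOH mice 1 to 5 had 1623, 1977, 1855, 1688 and 2411 bases, and vehicle mice 1 to 5 had 3407, 1771, 3118, 1775 and 1566 bases. All 20 values lay between the GENCODE M21 lengths of Prg4-207 and Prg4-206, and 7 lay below the length of Prg4-201. The annotation version behind the deposited counts is not given in the sources used here, so its transcripts may differ from those of GENCODE M21. The 2 vehicle mice with the most Prg4 differed in this measure, since vehicle mouse 1 had the longest mean of all 20 mice and vehicle mouse 2 was near the length of Prg4-201. The 5 longest means belonged to combination mice 1, 2 and 3 and vehicle mice 1 and 3. The mitochondrial share of counts in these 5 mice was 17.1%, 27.9% and 29.2% in combination mice 1, 2 and 3, and 12.9% and 15.9% in vehicle mice 1 and 3. Among the other mice, the highest shares were 16.7% in GGOH mouse 2 (1977 bases), 16.4% in rosuvastatin mouse 2 (2398 bases) and 16.2% in rosuvastatin mouse 5 (2046 bases). The lowest shares were 8.06% in GGOH mouse 1 (1623 bases), 8.66% in rosuvastatin mouse 3 (2672 bases) and 9.12% in combination mouse 5 (1740 bases). The part of mitochondrial content in the length was not tested.

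Group means were 2602 ± 725 bases in the combination group, 2220 ± 304 bases in the rosuvastatin group, 1911 ± 312 bases in the GGOH group and 2327 ± 864 bases in the vehicle group (SD, n = 5 each). The lengths are quotients of the counts and TPM in which Prg4 was chosen, so permutation tests of them cannot decide whether the groups differ. The p-values are given as a description. No difference passed the two-sided exact permutation test after adjustment over the 5 pairwise comparisons. The largest was between the combination and GGOH groups, with a mean length 1.36-fold higher in the combination group (log2 difference 0.44), an exact permutation p of 0.0873 and an adjusted p of 0.437. Against vehicle, the log2 difference was 0.21 in the combination group (exact permutation p = 0.516), 0.00 in the rosuvastatin group (exact permutation p = 1.0) and -0.24 in the GGOH group (exact permutation p = 0.389). The combination differed from rosuvastatin by 0.20 on the log2 scale (exact permutation p = 0.389). The smallest p that 5 against 5 mice allow is 0.00794. With those 3 libraries left out as above, the difference between the combination and GGOH was 0.17 (exact permutation p = 0.393) and that between the combination and rosuvastatin was -0.07.

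**Figure D4:**
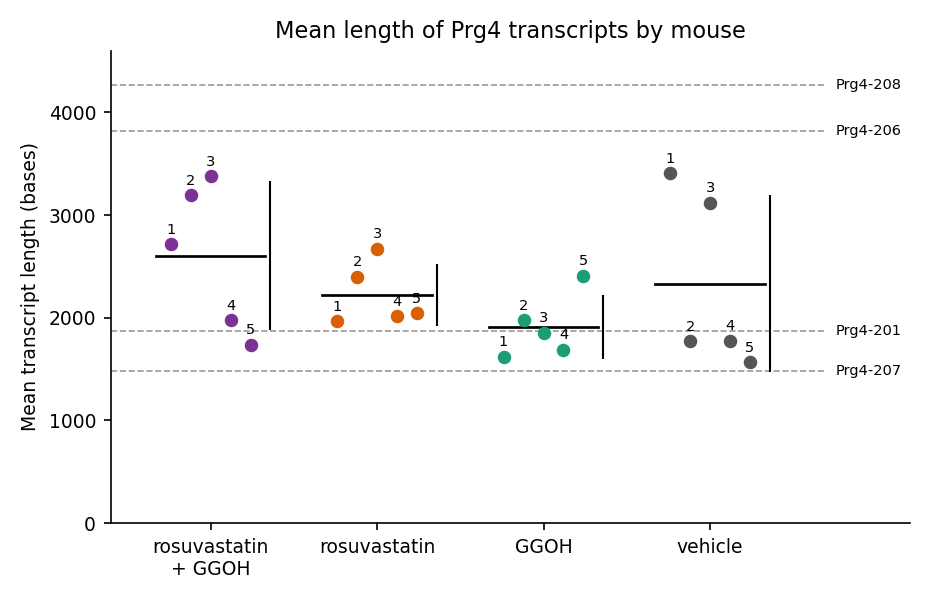
Mean length of Prg4 transcripts in bases in each mouse, by group; points are mice with their replicate number, horizontal lines are group means, vertical lines span 1 SD on each side (n = 5) and dashed lines give the annotated lengths of 4 transcripts. Combination mice 1, 2 and 3 and vehicle mice 1 and 3 have the 5 longest means, between 2717 and 3407 bases, and the GGOH mice lie between 1623 and 2411 bases.

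The last exon of Prg4 overlaps Tpr, a nuclear pore basket gene on the plus strand (chr1:150392838-150449935), by 524 bases. Whether the counting used the strand is not given in the sources used here, so reads in the overlap cannot be assigned to either gene with certainty. Tpr had 24.4 ± 5.90 CPM in the combination group, 22.2 ± 6.52 CPM in the rosuvastatin group, 20.2 ± 2.33 CPM in the GGOH group and 23.7 ± 4.94 CPM in the vehicle group (SD, n = 5 each). Its log2 fold changes against vehicle were 0.04, -0.10 and -0.24 for the combination, rosuvastatin and GGOH, with an SE of 0.20 each, and none passed the test. Next to Tpr lies Odr4, a membrane protein gene, with log2 fold changes of -0.29, -0.19 and 0.16 in the same order. On the other side lies Hmcn1, an extracellular matrix gene read at 0.668 to 3.26 CPM per mouse, with 0.47, 0.43 and 0.23. Neither passed the test in any contrast. The next neighbours, Pdc, Gm47985 and Gm8947, had 0 counts in every library.

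The other genes of lubricin biology were read as lists. Of 94 listed genes 81 were tested, and 0 of them passed an adjusted p of 0.05 in edgeR's quasi-likelihood test in any contrast, against 0.0% of all genes tested. At an unadjusted p under 0.05, the listed genes numbered 4 in the combination against vehicle (4.94%, against 5.5% of all genes), 7 in rosuvastatin against vehicle (8.64%, against 3.69%) and 2 in GGOH against vehicle (2.47%, against 2.86%). They numbered 3 in the combination against rosuvastatin (3.70%, against 1.69%), 10 in the combination against GGOH (12.3%, against 14.0%) and 3 in the interaction (3.70%, against 2.89%). All 7 in rosuvastatin against vehicle belonged to the sterol-regulated list. DESeq2 and limma on TPM also called 0 of the listed genes.

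Lubricin's receptors and binding partners include Cd44, a receptor for hyaluronan and lubricin, the Toll-like receptors Tlr2 and Tlr4, and Fn1, which encodes fibronectin. Of 7 listed, 6 were tested and none reached an unadjusted p under 0.05 in any contrast. Their median log2 fold change was 0.03 in the combination, 0.14 in rosuvastatin and 0.40 in GGOH, each against vehicle. Cd44 had 10.3 ± 1.78 CPM in the combination group, 11.98 ± 1.71 CPM in the rosuvastatin group, 14.1 ± 6.98 CPM in the GGOH group and 10.7 ± 2.39 CPM in the vehicle group (SD, n = 5 each). Tlr2 stood at a log2 fold change of 0.62 ± 0.33 in GGOH against vehicle and Fn1 at -0.52 ± 0.27. Of 7 listed proteases that cut lubricin, 3 were tested, and the cysteine protease cathepsin S (Ctss) stood at 0.53 ± 0.24 in GGOH against vehicle and -0.07 ± 0.24 in the combination.

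Regulators of Prg4 known from joint cells include the TGF-beta receptor Tgfbr1, its signal carrier Smad3, and the transcription factors Foxo1 and Creb5. Of 16 listed, 15 were tested, with a median log2 fold change against vehicle of 0.09 in the combination, -0.02 in rosuvastatin and -0.03 in GGOH. Foxo1 stood at -0.15 ± 0.32 in the combination, -0.21 ± 0.32 in rosuvastatin and -0.43 ± 0.32 in GGOH. Creb5 stood at -0.07 ± 0.48, -0.43 ± 0.48 and -0.01 ± 0.48 in the same order. In the combination against GGOH, Tgfbr1 stood at -0.37 ± 0.15 and was the 1 of the 15 regulators at an unadjusted p under 0.05, a level that 14.0% of all genes reached in that contrast.

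YAP/TAZ and SRF targets are genes that respond to the state of the actin cytoskeleton. Of 14 listed, 12 were tested, with a median log2 fold change against vehicle of -0.06 in the combination, 0.07 in rosuvastatin and -0.15 in GGOH. Ccn1 and Ccn2, secreted matrix proteins and common YAP targets, stood at -0.26 ± 0.27 and -0.67 ± 0.45 in the combination, -0.03 ± 0.27 and 0.14 ± 0.44 in rosuvastatin, and -0.32 ± 0.27 and -0.02 ± 0.44 in GGOH. Tagln, an actin-binding protein, stood at -0.72 ± 0.33 in the combination against vehicle and was the 1 of 12 members at an unadjusted p under 0.05 in that contrast, where 5.5% of all genes reached it. Other members went the other way, and 5 of the 12 lay above 0 in the combination against vehicle, where 50.8% of all genes did. In the combination against GGOH, 1 of the 12 was higher at an unadjusted p under 0.05, a level that 14.0% of all genes reached. In the interaction 1 of the 12 was higher at that level, against 2.89% of all genes reaching it. Yap1 itself stood at -0.03 ± 0.14 in the combination and 0.06 ± 0.14 in GGOH against vehicle.

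The repeats of lubricin are decorated by O-glycosylation enzymes, of which 14 of 14 were tested. Their median log2 fold change against vehicle was 0.06 in the combination, 0.10 in rosuvastatin and -0.00 in GGOH. C1galt1, which adds the core galactose, stood at -0.26 ± 0.12 in the combination against vehicle. St3gal1, which caps such chains with sialic acid, stood at 0.60 ± 0.24 in the combination against GGOH.

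Genes that share the end domains of lubricin include Vtn (vitronectin), Hpx (hemopexin) and the ectoenzymes Enpp2 (autotaxin) and Enpp3. Of 12 listed, 10 were tested, and all 10 had a log2 fold change below 0 in GGOH against vehicle, with a median of -0.38, and 53.1% of all genes tested lay below 0. Of these 10, 1 reached an unadjusted p under 0.05, against 2.86% of all genes, namely Enpp3 at -0.41 ± 0.17. Their median was -0.19 in the combination and -0.11 in rosuvastatin. In the combination against vehicle, 2 of the 10 were lower at an unadjusted p under 0.05 (2.81% of all genes were), among them Enpp2 at -0.39 ± 0.16. Vtn stood at -0.25 ± 0.21, -0.10 ± 0.21 and -0.37 ± 0.21 in the combination, rosuvastatin and GGOH against vehicle. Among other secreted proteoglycans 10 of 13 were tested, and in the combination against GGOH the small leucine-rich proteoglycan Dcn (decorin) stood at -0.56 ± 0.21 and the heparan sulfate proteoglycan Agrn (agrin) at 0.81 ± 0.31.

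Sterol-regulated genes were listed because they mark the pathway that rosuvastatin inhibits, and this list was chosen with its values in these libraries known. All 11 listed genes had a log2 fold change above 0 in rosuvastatin against vehicle, where 47.3% of all genes tested did, with a median of 1.24, and 7 of them were higher at an unadjusted p under 0.05 (7 of 11, against 1.77% of all genes higher at that p). None passed after adjustment. Fdps and Mvd, enzymes of the mevalonate pathway, both stood at 1.64, with an SE of 0.51 and 0.55. The list median was 0.18 in the combination and -0.42 in GGOH, both against vehicle, so the list and Prg4 were ordered differently across the 4 groups.

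The genes whose levels were most like Prg4's were chosen by Pearson r of log2 CPM over the 20 mice, among 10129 named genes with a mean log2 CPM of at least 1. They are given as a description, since the extremes of many genes were taken. The 6 highest were Hnrnph2 (an RNA-binding protein, r = 0.81), Epc2 (a chromatin protein, 0.80), Smc6 (part of a chromosome maintenance complex, 0.77), Dock4 (a Rac activator, 0.76), Rin2 (a Rab5 activator, 0.75) and Ttll4 (a tubulin-modifying enzyme, 0.75). The 3 lowest were Tprgl (r = -0.77), Gnpat, an enzyme of ether lipid synthesis (-0.77), and Nadk, which makes NADP (-0.77). Spearman's rho of the 6 highest ran from 0.66 to 0.81. Vehicle mice 1 and 2 were the 2 farthest from Prg4's median, and without them r was 0.50 for Hnrnph2, 0.55 for Epc2, 0.62 for Smc6, 0.75 for Dock4, 0.77 for Rin2 and 0.76 for Ttll4. On log2(TPM + 1) the same 6 genes had r between 0.15 and 0.61. After the group means were subtracted, Epc2 (0.81), Rin2 (0.74), Hnrnph2 (0.73), Ttll4 (0.73), Epc1 (0.72) and Xndc1 (0.71) were highest, and Pttg1ip (-0.84) and Ing5 (-0.78) were among the 3 lowest. All 20 libraries share depth and composition scaling, which such correlations also read.

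Fewer cells of a type and less RNA per cell cannot be told apart in whole liver. Markers of hepatocytes and of the other cell types that could carry Prg4 were therefore summed. The 8 hepatocyte markers summed to 50415 to 95086 CPM in the combination group and 64315 to 84990 CPM in the rosuvastatin group. They summed to 64418 to 77379 CPM in the GGOH group and 54738 to 106673 CPM in the vehicle group. Their median log2 fold change against vehicle was -0.16 in the combination, -0.15 in rosuvastatin and -0.18 in GGOH. The 6 cartilage and synovial markers summed to at most 0.314, 0.259, 0.244 and 0.147 CPM in the combination, rosuvastatin, GGOH and vehicle groups, and Col2a1 and Col10a1, defining collagens of cartilage, were at 0 in all 20 libraries. The 8 mesothelial markers summed to 1.96 to 14.4 CPM in the combination group, 1.36 to 15.01 CPM in the rosuvastatin group, 2.93 to 8.86 CPM in the GGOH group and 1.59 to 11.98 CPM in the vehicle group. The 6 megakaryocyte and platelet markers summed to 1.33 to 4.09 CPM in the combination group, 1.92 to 5.21 CPM in the rosuvastatin group, 1.85 to 2.99 CPM in the GGOH group and 1.74 to 3.32 CPM in the vehicle group. These ranges overlapped between every pair of groups. Over the 20 mice, r with Prg4 was -0.31 for the mesothelial sum, -0.29 for the megakaryocyte sum, -0.12 for the cartilage sum and -0.12 for the hepatocyte sum. It lay between -0.05 and 0.01 for the stellate and fibroblast, Kupffer, sinusoidal endothelial, cholangiocyte, neutrophil and adipocyte sums. The lymphocyte sum had the r farthest from 0 among the 11 marker lists, at -0.52. After group means were subtracted, r ran from -0.43 (lymphocyte) to 0.29 (sinusoidal endothelial) over the 11 lists. The part of any of these cell types in the Prg4 levels was not tested.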

How the data were processed

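RNA-seq was measured in 20 liver libraries. Per the labels' protocols, RNA was purified on RNeasy columns, poly(A)-selected, made into TruSeq libraries and read as pairs on a NovaSeq instrument. The tools listed in the submitters' processing notes are kallisto 0.44.0, bcl2fastq 2.19 and DESeq2, and the build is GRCm38. The authors deposited estimated counts per gene, which were whole numbers, and TPM per gene, which the authors scaled for transcript length and depth. The 1 entry with no gene name (0.00801 to 0.0157% of a library's counts) was left out.

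Counts were fitted with edgeR 4.0.16 in R 4.3.3 (TMM, low-count filter by group, 1 group-means model over all libraries, quasi-likelihood F test), with Benjamini-Hochberg adjustment over 12789 genes and a threshold of 0.05. The fit was tested on simulated data. Lengths were compared with exact permutation tests. DESeq2 1.42.0, limma 3.58.1 on log2(TPM + 1) and log2(TPM + 0.1), other scalings and filters, a replicate block and leaving out libraries were alternatives.

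The gene and the lists were chosen with earlier results of these data known. The genes named were Prg4, its 3 nearest protein-coding neighbours on each side, the 6 genes with the highest and the 3 with the lowest r with Prg4, 12 genes fixed by name, and the 2 members of each list with the smallest p. Of these genes, 2 are not reported here. Saa1 and Saa2 were added after their values were seen. The labels number the libraries 1 to 5 in each group, each called a mouse here, and do not state that they came from separate animals, so p-values measure only the spread between these libraries. For same-numbered libraries, r of the deviations from group means ran from -0.46 to 0.51 (median 0.06, over 0.1 in 13 of 30 pairs). Differently numbered libraries were not compared, so these values do not settle whether the numbers mark pairs or batches. The main fit did not take the numbers as pairs. Counting intervals cover counting error only.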

Additional observations from a re-analysis of the deposited data

Results flagged for a closer look

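Each group of 5 mice was searched for a highest or lowest value set far from the rest by Dixon's criterion at 95%. Of 240 such groups 11 held one, and chance gives about 12, so they are listed as values.

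Saa1 and Saa2, acute-phase genes whose near-identical copies can share reads, stood apart in 1 rosuvastatin mouse and in the vehicle mouse with the most Prg4. Rosuvastatin mouse 3 had 1431 CPM of Saa1 and 1047 CPM of Saa2, against 65.6 to 191 CPM and 36.7 to 78.8 CPM in the other 4 rosuvastatin mice, and its Prg4 level was 14.3 CPM. Vehicle mouse 2 had 9216 CPM of Saa1 and 5034 CPM of Saa2, against 93.1 to 1456 CPM and 45.7 to 553 CPM in the other 4 vehicle mice. The part of Saa levels in the Prg4 level was not tested.

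Epc1, a chromatin protein, had 11.5 CPM in combination mouse 2, against 7.14 to 8.37 CPM in the other 4. Hmcn1 had 0.668 CPM in vehicle mouse 5, against 1.31 to 1.56 CPM in the other 4. Enpp3 had 36.7 CPM in GGOH mouse 5, against 23.2 to 27.1 CPM in the other 4. Dcn had 437 CPM in GGOH mouse 4, against 229 to 278 CPM in the other 4. The neutrophil marker sum was 21.6 CPM in combination mouse 5 (5.43 to 9.91 CPM in the other 4) and 17.7 CPM in rosuvastatin mouse 1 (10.3 to 12.3 CPM in the other 4). The lymphocyte marker sum was 9.58 CPM in vehicle mouse 4 (4.24 to 5.60 CPM in the other 4). No Prg4 value met the criterion within its group.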

How the results depend on the processing

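Prg4's log2 fold changes against vehicle stayed below 0 under every alternative run. Prg4 was chosen for lower values in these same libraries, and each run kept vehicle mouse 1 or 2, so this sign is no test. On log2(TPM + 1) GGOH against vehicle was -0.75 and the interaction 0.80, and on log2(TPM + 0.1) the interaction was 0.85. The combination against GGOH was -0.29 on log2(TPM + 1), -0.31 on log2(TPM + 0.1), -0.40 with transcript length offsets and -0.26 without the 3 libraries that stood apart, where the combination against rosuvastatin was -0.040. The median of all genes moved to 0.18 (rosuvastatin), 0.14 (combination) and -0.13 (interaction) on log2(TPM + 0.1), and to 0.11 for rosuvastatin on log2(TPM + 1). Leaving out 1 library gave ranges of -1.47 to -0.77 (combination), -1.81 to -1.09 (rosuvastatin) and -1.58 to -0.90 (GGOH) against vehicle, 0.12 to 0.55 for the combination against rosuvastatin, -0.10 to 0.20 against GGOH and 1.21 to 1.92 for the interaction.

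Genes called numbered 5 in the combination against vehicle (Cyp2b10, Saa1, Saa2, Gm10171 and Gm10233), 1 in the combination against rosuvastatin (Cyp2b10) and 2 in rosuvastatin against vehicle (Nfe2 and Prg4) with DESeq2, all named after their values were seen. Prg4 was chosen on that contrast, so its call there is no test of it. Each of the first 2 contrasts had 1 call with limma on log2(TPM + 1) and with no low-count filter, and the first had 1 on log2(TPM + 0.1) and with length offsets. Leaving out 1 library gave 0 to 1 calls in these 2 contrasts. With the replicate number as a block, Prg4 stood at -1.11, -1.43 and -1.16 (combination, rosuvastatin and GGOH against vehicle), 0.32 and 0.05 (combination against rosuvastatin and GGOH) and 1.48 (interaction), and 0 genes were called.

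The length difference of rosuvastatin from vehicle was -0.0060 with a mean in place of a median and -0.13 to 0.17 with 1 library left out. That of the combination from rosuvastatin was -0.072 without the 3 libraries, a setting added for length after seeing the data. Of the 6 genes most like Prg4, 0 were shared on log2(TPM + 1), 3 with Spearman's rho and 3 without the 2 farthest mice; after subtracting group means, 0, 2 and 2, and 2 without the 3 libraries. With 1 library left out 0 to 6 were shared, 0 without vehicle mouse 2. The causes were not tested.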
